A study of Mus musculus with 51 samples.

Results

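The regions described here are 5-hydroxymethylcytosine (5hmC) peaks of mouse femur that were called in mice kept on vitamin C (VitC) and not in mice from which VitC was withdrawn. They were chosen by 2 values of the deposited peak lists: a VitC+ peak had to have a −log10 q-value of at least 5, and no VitC+/- peak could overlap it by even 1 bp. Of 308199 VitC+ peaks at that threshold, 55121 (17.9%) met the rule and are called lost regions. The other 253078 overlapped a VitC+/- peak and are called kept peaks. In the opposite direction, 71188 of 341152 VitC+/- peaks (20.9%) at the same threshold had no overlapping VitC+ peak and are called gained peaks, so lost regions were not the larger class. The whole lists held 371568 VitC+ and 399599 VitC+/- peaks on chromosomes 1 to 19, and both covered 175 Mb.

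Both lists came from Gulotm1Mae mice on a C57BL/6 background, in which the last enzyme of VitC synthesis is disrupted, so both groups depended on VitC in the drinking water. VitC+ mice drank water with 3.3 g/L VitC until they were killed at 20 weeks of age, and VitC+/- mice drank it for 15 weeks and none thereafter, to the same age. Decalcified femurs of 3 mice per group were used for hydroxymethylated DNA immunoprecipitation and sequencing (hMeDIP-seq), in which an antibody to 5hmC enriches DNA fragments, and 3 RNA libraries from flushed and minced femurs were available for each of VitC+, VitC+/- and wild type (WT) mice aged 20 weeks. Other lists came from femurs of mice aged 11 weeks with Prrx1-Cre, a Cre active in limb mesenchyme and not in blood cells: Ctrl mice carried Prrx1-Cre with wild type Tet alleles, and Tet1/2 cKO mice carried it with floxed Tet1 and Tet2 (3 mice each). The last were from MC3T3-E1, a single clonal line of mouse calvarial pre-osteoblasts, kept to day 28 with 50 µg/ml VitC or with none (2 cultures each), and, for histone H3 trimethylated at lysine 27 or lysine 9, from separate and shorter cultures of that line. Each list is 1 pooled call per group, so a peak has no replicate, differences between lists could not be tested, and read depth is not known.

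5hmC arises when TET enzymes oxidise 5-methylcytosine, a reaction that needs iron, and VitC keeps that iron in its reduced state. The mark lies mainly in gene bodies and enhancers and is a step towards removal of DNA methylation. In bone, osteoblasts deposit and mineralise the collagen matrix, osteocytes are osteoblasts embedded in it, and osteoclasts resorb it.

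To show what a lost region looks like, the strongest by −log10 q-value within 30 kb of the transcription start site (TSS) of bone genes are printed, 1 per gene (mm10 coordinates, plus strand of RefSeq GRCm38.p6, at most 300 bases, CpG dinucleotides in capitals). Pth1r encodes the parathyroid hormone receptor, Lrp4 a co-receptor that binds sclerostin, Col1a1 a chain of type I collagen, Dlx5 an osteoblast transcription factor and Ggt5 a gamma-glutamyltransferase.
Pth1r, chr9:110720512-110720811: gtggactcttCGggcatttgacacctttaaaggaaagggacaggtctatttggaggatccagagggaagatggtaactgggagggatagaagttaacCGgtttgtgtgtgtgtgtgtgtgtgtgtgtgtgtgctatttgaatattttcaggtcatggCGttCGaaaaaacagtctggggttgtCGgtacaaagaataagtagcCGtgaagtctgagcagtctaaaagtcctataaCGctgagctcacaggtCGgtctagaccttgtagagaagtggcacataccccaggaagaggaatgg
Lrp4, chr2:91452630-91452923: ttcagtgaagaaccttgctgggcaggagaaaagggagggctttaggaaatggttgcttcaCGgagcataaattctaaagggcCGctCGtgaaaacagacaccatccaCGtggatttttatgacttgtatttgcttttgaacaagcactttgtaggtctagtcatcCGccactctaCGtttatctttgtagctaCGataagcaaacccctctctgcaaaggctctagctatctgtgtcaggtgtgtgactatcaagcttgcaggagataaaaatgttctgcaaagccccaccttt
Col1a1, chr11:94912982-94913281: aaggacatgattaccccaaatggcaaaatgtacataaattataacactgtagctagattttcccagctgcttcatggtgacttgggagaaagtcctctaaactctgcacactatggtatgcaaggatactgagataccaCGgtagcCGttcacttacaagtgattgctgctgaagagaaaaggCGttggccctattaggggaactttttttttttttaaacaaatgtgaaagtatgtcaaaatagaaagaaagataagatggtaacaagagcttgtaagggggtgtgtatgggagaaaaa
Dlx5, chr6:6887093-6887392: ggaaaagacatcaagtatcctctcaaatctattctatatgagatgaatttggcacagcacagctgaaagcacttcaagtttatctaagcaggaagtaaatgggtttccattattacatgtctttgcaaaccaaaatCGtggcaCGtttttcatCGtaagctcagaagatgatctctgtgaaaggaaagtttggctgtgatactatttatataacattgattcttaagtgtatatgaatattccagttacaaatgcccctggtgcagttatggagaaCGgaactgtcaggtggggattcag
Ggt5, chr10:75563391-75563690: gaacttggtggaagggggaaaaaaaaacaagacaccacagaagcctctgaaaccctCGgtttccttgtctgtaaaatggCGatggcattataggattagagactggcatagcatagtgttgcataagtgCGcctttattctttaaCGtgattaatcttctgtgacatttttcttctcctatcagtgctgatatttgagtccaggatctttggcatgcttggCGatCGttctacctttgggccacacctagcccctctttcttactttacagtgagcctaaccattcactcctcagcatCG

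The Pth1r sequence held 8 CpG dinucleotides and the Col1a1 sequence 3, at G or C shares of 47% and 39%. All 5 overlapped a peak of the Ctrl femur list, and 4 of the 5, not the one at Dlx5, overlapped one of the Tet1/2 cKO list. The Pth1r region lay 26490 bp downstream of the TSS, beyond the 3′ end of the gene, the Lrp4 region 4679 bp upstream, the Col1a1 region 23091 bp upstream and the Dlx5 region 5183 bp upstream. The Ggt5 region, 25790 bp upstream of that TSS, was inside an intron of its neighbour Ggt1.

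Lost regions were short and weak among VitC+ peaks. Their median length was 284 bp against 426 bp for kept peaks and 293 bp for gained peaks, and their median fold enrichment was 3.99, with kept peaks at 5.01 and gained peaks at 3.74. The share of VitC+ peaks without an overlapping VitC+/- peak fell from 17.9% at a −log10 q-value of at least 5 to 9.53% at 10 and 1.78% at 20, where 1589 remained. At 50 a single region was left, of 17380 peaks. These values belong to the contrast that chose the regions and are given as a description. Regions just inside the threshold had a value of 5.00393 and those just outside 4.99961, at folds of 2.96 and 3.31. The nearest VitC+/- peak was a median of 1405 bp away, 21253 lost regions (38.6%) had one within 1000 bp, and 2263 (4.11%) had none within 10 kb.

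The strongest lost region had a fold of 11.4 and lay in an intron of Mapkapk2, a stress-activated kinase, at chr1:131076030-131076785. Others among the strongest lay 33114 bp upstream of Lmo7, an adaptor of cell junctions, and in introns of Lhfpl2 and of Mylip, an E3 ligase for the LDL receptor. Of the 10 strongest by fold, 7 were in introns, including those of Cd44, the hyaluronan receptor, Trappc9, Basp1 and Msrb3, a methionine sulfoxide reductase. All 10 overlapped a Ctrl femur peak and only the one near Lmo7 overlapped a peak of MC3T3-E1 cells without VitC. One, of 2025 bp on chromosome 2, was 584733 bp from the nearest TSS, that of 1700028P15Rik.

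Lost regions sat inside genes more often than the other classes. The midpoint was inside a RefSeq gene for 35394 lost regions (64.2%), against 59.6% of kept and 40.1% of gained peaks. Introns held 57.1% of lost regions, coding exons 1.30%, other exons 4.06% and the 1 kb on either side of a TSS, called promoters here, 3.08%. The same shares among gained peaks were 37.6%, 0.239%, 1.54% and 1.47%. Read the other way, 28.8% of VitC+ peaks in coding exons were lost, 21.1% in promoters, 18.6% in introns and 16.1% between genes. Within bins of length, fold and G or C share, the kept peaks weighted to the mix of lost regions were inside genes in 55% of cases and the lost regions in 64.2%. Across chromosomes the share of VitC+ peaks lost ran from 16.3% on chromosome 16 to 20.2% on chromosome 11.

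**Figure D1:**
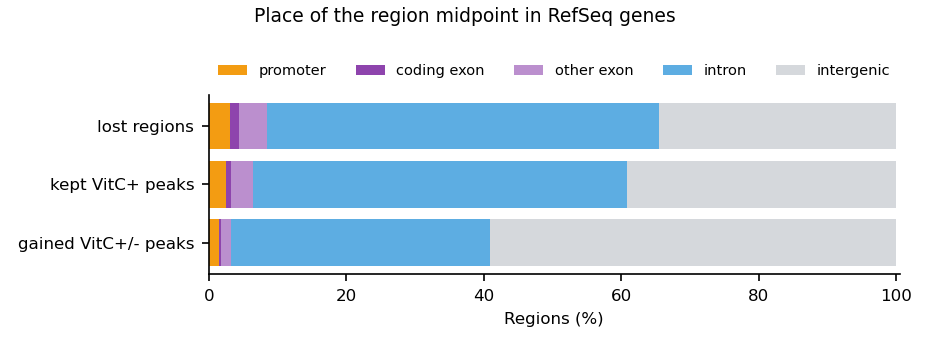
Share of lost regions, kept VitC+ peaks and gained VitC+/- peaks (rows) whose midpoint fell in a promoter, coding exon, other exon, intron or between genes (colours, % of regions). Intergenic regions make up 34.5% of lost regions, 39.2% of kept and 59.2% of gained peaks.

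The base composition of lost regions also set them apart. In windows of 300 bases centred on the summit, the median share of G or C was 41.7% in lost regions, 39% in kept and 36.7% in gained peaks. Lost regions held a median of 3 CpG per window, kept peaks 2 and gained peaks 1, and the median ratio of observed to expected CpG was 0.274, 0.244 and 0.126. Repeats, shown in lower case in the genome file, took a median of 15.3% of bases in lost regions, 23% in kept and 45% in gained peaks. The share of VitC+ peaks that were lost was 10.3% where G or C made up under 40% of the window, 23.9% at 40 to 45% and 41.9% at 45 to 50%. In the few peaks above that it was 26.4% at 50 to 55% (134 lost) and 33.3% beyond (7 lost), so it did not rise throughout. The part of base composition in the other differences between classes was not tested beyond the bins given beside them.

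**Figure D2:**
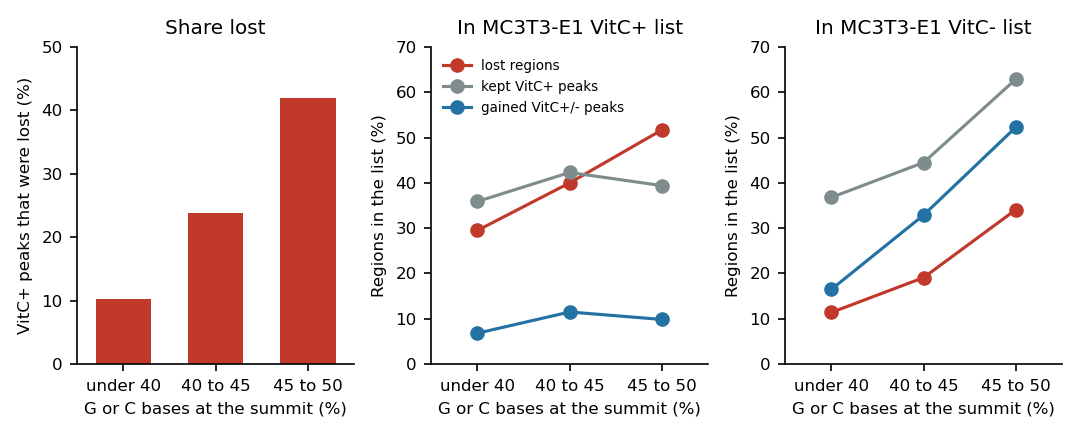
Regions binned by the share of G or C bases in the 300-base summit window (x axis, %). Bars give the share of VitC+ peaks that were lost (10.3, 23.9 and 41.9%), and lines the share of lost, kept and gained regions found in the MC3T3-E1 list with VitC (middle) or without it (right). In the right panel the lost regions lie lowest in the 3 bins drawn, and the bins at 50 to 55% and beyond, with 134 and 7 lost regions, are not drawn.

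Short sequences bound by known transcription factors were counted in the same windows on both strands. The RUNX letters TGTGGT, the core bound by the osteoblast factor RUNX2 and its relatives, were in 12443 lost regions (22.6%), 18.4% of kept, 14.1% of gained and 18.2% of all 379387 windows. The E-box CAGCTG was in 9.18% of lost regions and 6.34% of all windows, the AP-1 letters TGANTCA in 10.1% and 8.57%, and the C/EBP letters TTGCNNAA in 14.1% and 12.8%. Other motifs were less frequent in lost regions than in all windows: the GATA letters AGATAA with 20.4% against 23.5%, the ETS letters GAGGAAG with 11.5% against 13.3% and the MEF2 letters TATTTATA with 3.62% against 3.86%. In bins of length, fold and G or C share, the RUNX letters were in 22.6% of lost regions and 18.5% of weighted kept peaks, and the ETS letters in 11.4% and 18%. MEF2 turned the other way there, with 3.62% and 3.07%. Matches of different motifs may share bases, and a match is not a bound site.

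The lost regions were then looked up in lists the rule did not use. In femurs of Ctrl mice, 29247 lost regions (53.1%, 95% Wilson interval 52.6 to 53.5%) overlapped a 5hmC peak, while 5489 gained peaks (7.71%) did. Kept peaks, which are longer and stronger, overlapped a Ctrl peak in 48.5% of cases. At each of 5 length classes and each of 5 fold classes the lost regions were in the Ctrl list more often than kept peaks, for example 48.9% against 28.8% at 250 to 300 bp and 58.6% against 38.5% at a fold of 4 to 5. After weighting by length, fold and G or C share together, the values were 53.0% and 37.7%, with the lost regions higher in 72 of 75 bins. The intervals cover counting of regions only, as neighbouring regions are not independent.

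In the Tet1/2 cKO list, which is smaller (146626 peaks against 259326 for Ctrl), 15271 lost regions (27.7%, interval 27.3 to 28.1%) had a peak, with 28.1% of kept and 3% of gained peaks. Of the lost regions present in Ctrl, 14232 (48.7%) were missing from the Tet1/2 cKO list, compared with 43.5% of the kept and 64.1% of the gained peaks present in Ctrl. These missing shares were not matched, and kept peaks are longer and stronger. Weighted by length and fold, 32.5% of kept peaks were in Ctrl and 15.5% in Tet1/2 cKO, against 53.1% and 27.7% of lost regions. Whether the missing shares differ between lost and kept peaks of like length, fold and G or C share was not tested. In bins of length, fold and G or C share, 27.6% of lost regions and 20.2% of weighted kept peaks were in the Tet1/2 cKO list, with the lost regions higher in 65 of 75 bins. A peak in Tet1/2 cKO and none in Ctrl was rare, at 256 lost regions (0.464%). Femur also holds cells in which Prrx1-Cre is not active, so a peak left in the Tet1/2 cKO list cannot be assigned to either kind of cell.

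In MC3T3-E1 cells the lost regions divided by treatment. With VitC, 21291 lost regions (38.6%, interval 38.2 to 39%) had a 5hmC peak, and without it 10558 (19.2%, interval 18.8 to 19.5%). Kept peaks showed 38.4% with VitC and 41.0% without, and gained peaks 7.76% with and 20.5% without. The VitC list of this line covers 7.92% of chromosomes 1 to 19 and the list without VitC 5.85%. In bins of length, fold and G or C share, 19.1% of lost regions and 38.5% of weighted kept peaks were in the list without VitC, with the lost regions lower in 72 of 75 bins. In the list with VitC they were higher in 61 of 75 bins, at 38.6% against 28.3%. A peak with VitC only was found for 14803 lost regions (26.9%), with and without for 6488 (11.8%), without only for 4070 (7.38%) and in neither for 29760 (54.0%). Among kept peaks those shares were 21.2%, 17.2%, 23.8% and 37.8%.

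**Figure D3:**
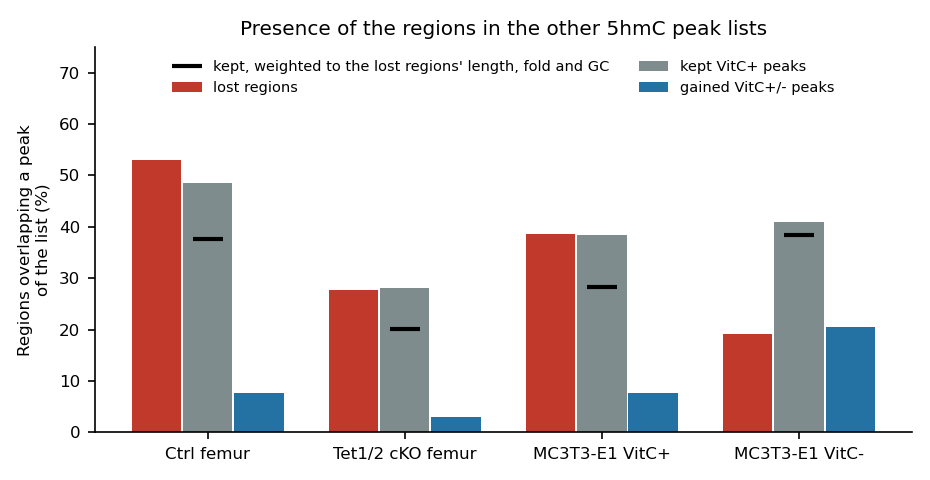
Share of lost regions, kept VitC+ peaks and gained VitC+/- peaks (bars, %) that overlap a peak of each of 4 other 5hmC lists by at least 1 bp. The black marks give kept peaks weighted to the lost regions' mix of length, fold and G or C share. Lost regions reach 53.1% in Ctrl femur and 38.6% in MC3T3-E1 with VitC, against 19.2% without VitC.

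Taking the 4 lists at once, 4685 lost regions (8.50%) were in Ctrl femur and MC3T3-E1 with VitC and in neither Tet1/2 cKO femur nor MC3T3-E1 without VitC. That pattern was met by 6.61% of kept and 1.33% of gained peaks. In contrast, 18356 lost regions (33.3%) were in none of the 4 lists, as were 24.7% of kept and 70.8% of gained peaks. Lists of trimethylated H3 in MC3T3-E1 cells, called at a looser threshold, touched fewer lost regions. H3K27me3, a mark of Polycomb repression, overlapped 9.83% of them in cells without VitC and 6.75% with it, against 7.75% and 5.48% of kept peaks. Its lists themselves cover 9.45% and 5.87% of chromosomes 1 to 19. In bins of length, fold and G or C share, lost regions stood at 9.83% and 6.74% and weighted kept peaks at 9.29% and 6.29%, so the classes were close. H3K9me3, a mark of heterochromatin, overlapped 2.66% and 1.21%, against 2.66% and 1.39%, and its lists cover 2.69% and 1.75%.

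Near genes, 21120 lost regions (38.3%) had their midpoint within 30 kb of the TSS of a gene in the RNA tables. Of 21594 such genes on chromosomes 1 to 19, 13925 had at least 1 lost region and 2607 (12.1%) had 4 or more, up to 12. Kif13b, a kinesin motor, Smpd3, the neutral sphingomyelinase needed for matrix mineralisation, and 4930558K02Rik had 12 each. Fbxo28, Vldlr, a lipoprotein receptor, Uchl4, 4933440J02Rik, Pard6g and 2010106C02Rik had 11. Gm10677, Vdr, the vitamin D receptor, and Npnt, a matrix ligand of integrins, had 10. Counts of lost and kept peaks follow from the rule and carry no test.

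The share lost was high at certain genes. Among 13070 genes with at least 5 VitC+ peaks near the TSS the median gene lost 18.8% of them, and 67 genes lost at least 75%. Pth1r lost 8 of its 9 peaks and gained 1. Mt1 and Mt2, neighbouring metallothionein genes that share the same peaks, lost 9 of 10 and gained none. Anapc7, a subunit of the anaphase-promoting complex, lost all 7. Lrp5, a Wnt co-receptor that sets bone mass, lost 8 of 11, and Vdr lost 10 of 21 and gained none. All 10 lost regions at Vdr were in the Ctrl femur list, 7 were in the MC3T3-E1 list with VitC and 1 was in that without, and they ran from 17600 bp upstream of the TSS to 28235 bp downstream. At Smpd3, 8 of 12 lost regions were upstream of the TSS, the nearest at 2849 bp. The strongest, at chr8:106362367-106362667 with a fold of 6.92, was in Ctrl, Tet1/2 cKO and MC3T3-E1 VitC+ and not in MC3T3-E1 VitC-.

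**Figure D4:**
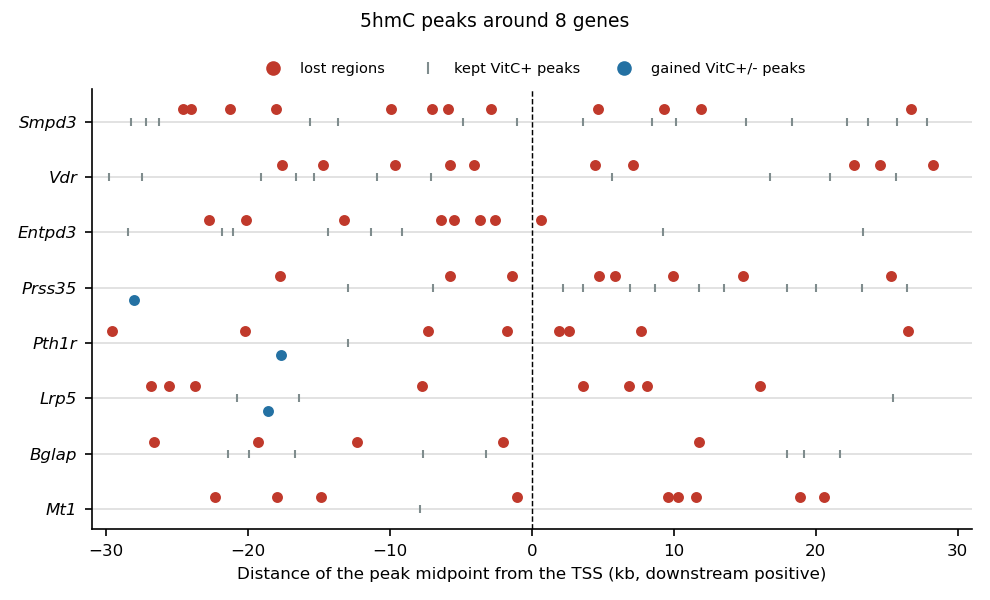
Midpoints of 5hmC peaks within 30 kb of the TSS (dashed line) of 8 genes named in the text, by distance in kb along the direction of transcription. Red points are lost regions, grey ticks kept VitC+ peaks and blue points gained VitC+/- peaks. Pth1r shows 8 lost regions and 1 kept peak, and Mt1 shows 9 and 1.

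Counting each peak once however many genes it was near, 21120 VitC+ peaks within 30 kb of the TSS of any gene were lost and 87623 kept, a share of 19.4%, and 18430 gained peaks lay there. Genes of the Bone60 list, which the study chose as bone-selective, had 172 lost and 495 kept peaks (25.8%) and 41 gained ones. Osteoblast and osteocyte markers had 67 lost and 205 kept (24.6%) with 16 gained, and genes of Wnt and BMP signalling stood at 26% lost with 31 gained peaks. There were 4.2 lost regions per gained peak at Bone60, 4.19 at osteoblast and osteocyte markers, 3.26 at Wnt and BMP genes and 1.15 over all genes. Lists share genes: Pth1r is in Bone60 and the osteoblast list, and Lrp5 in Bone60 and the Wnt and BMP list. These ratios are therefore not independent, and they were not matched for base composition or place. Among the other lists the ratio of lost to gained ran from 0.667 at endothelial genes to 2.27 at collagen hydroxylases and crosslinkers. It was 2.12 at osteoclast and 1.8 at chondrocyte genes. Those 4 lists had 12, 11, 8 and 10 gained peaks. Shares lost above that of all genes were not limited to bone lists: they were 28.9% for erythroid genes with 11 lost regions, 28.7% for adipocyte genes with 25, 27% for osteoclast genes with 17, 23.2% for neutrophil genes with 13 and 22.7% for T cell genes with 5. The share was 21% for collagen hydroxylases and crosslinkers, 20.7% for chondrocyte, 19.3% for megakaryocyte, 19.2% for cytosine methylation, 19.1% for B lineage, 14.3% for macrophage, 14.2% for marrow stroma and fibroblast, 13.6% for endothelial and 11.8% for skeletal muscle genes. Bone genes with many lost regions were Slc13a5, a citrate transporter, with 9, Prss35, a protease-like protein, and Entpd3, an ectonucleotidase, with 8 each, Fam78b and Slc36a2, a proline and glycine transporter, with 7, and Bmp3, Lrp4 and Rhbdl2 with 6.

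Femur RNA of the same groups was measured in separate libraries that the rule did not use. limma, applied to log2(scaled RPKM + 0.5) of 12586 table entries over 9 libraries with Benjamini-Hochberg adjustment, called 946 lower (7.52%) and 746 higher (5.93%) in VitC+/- than in VitC+ at an adjusted p under 0.05. Of 13925 genes near a lost region 9219 passed the filter on low values. Among these, 680 (7.38%) were lower and 554 (6.01%) higher, near the shares of all entries, and 283 and 348 without scaling of the libraries. Their median log2 difference was 0.03 and that of all entries 0.02. By number of lost regions, the share lower was 7.85% with none, 7.21% with 1, 6.81% with 2, 7.32% with 3 and 8.39% with 4 or more, and the share higher ran between 5.49% and 6.36%. Genes with a lost region within 1 kb of the TSS, a distance chosen after seeing the data, were lower in 64 of 610 cases (10.5%) and higher in 31 (5.08%), although with 1 library left out the lower share ran from 3.61% to 13.4% while that of all entries ran from 2.54% to 9.80%. In bulk tissue, fewer cells of a type and less RNA per cell cannot be told apart.

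The WT libraries entered the fit to estimate the spread. Gulo, the gene disrupted in both groups, was at 0.522, 0.486 and 0 RPKM in them, 0.180, 0.0352 and 0.0294 in VitC+ and 0.0126, 0.0141 and 0.0186 in VitC+/-. The library labelled WT replicate 3 thus lay below the other WT libraries, and VitC+ replicate 1 above the other VitC+ libraries. Gulo is chiefly a liver enzyme, its level in bone is low throughout, and it did not pass the filter on low values. These values therefore do not settle whether a label is wrong. Without WT replicate 3 limma called 654 entries lower and 454 higher in VitC+/- than in VitC+, and without VitC+ replicate 1 it called 416 and 276.

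Many bone genes near lost regions were lower in VitC+/-. Over all tested entries, 7.52% were lower and 5.93% higher. Of 48 tested Bone60 genes with a lost region, 21 were lower and 2 higher, and their median log2 difference was -1.29. Of the 10 tested Bone60 genes without one, 1 was lower and their median was -0.71, and the difference between these sets of genes was not tested. In Bone60 as a whole 22 of 58 tested genes were lower, with a median of -1.04. Among osteoblast and osteocyte markers with a lost region 9 of 20 were lower and 1 was higher. Since the study picked Bone60 and reported its change in these mice, this count is not independent evidence of direction. Leaving out VitC+/- replicate 1 reduced the Bone60 count to 11 and the osteoblast count to 3 by limma, and leaving out VitC+ replicate 3 to 11 and 4. With the replicate number as a block the counts were 29 and 16, although the labels do not say that the numbers pair the mice.

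Several osteoblast genes near lost regions fell. Bglap, which encodes osteocalcin, had 5 lost regions, 8 kept peaks and no gained peak near its TSS. It was at 2711, 1164 and 1606 RPKM in VitC+ and 11.5, 8.57 and 9.13 in VitC+/-. The groups did not overlap, and the log2 fold change was -7.53 ± 0.71 (SE, limma adjusted p = 0.00068). Bglap2, its near-identical neighbour, had 4 lost regions within 30 kb, all of them among the 5 of Bglap, and reads may be split between both genes. Smpd3 was at 16.6, 21.6 and 41.6 RPKM in VitC+ and 2.19, 0.653 and 7.2 in VitC+/-, with no overlap (-3.23 ± 0.67, SE, limma adjusted p = 0.0166). Without VitC+ replicate 3 that p was 0.0633, without VitC+/- replicate 1 it was 0.0624 and without VitC+ replicate 2 it was 0.0514.

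Entpd3 was at 28.0, 23.4 and 45.8 RPKM in VitC+ and 1.68, 1.49 and 2.29 in VitC+/- (log2 fold change -3.89 ± 0.36, SE, limma adjusted p = 0.00068). Prss35 was at 23.6, 19.7 and 29.5 and at 1.41, 0.330 and 4.11 (-3.76 ± 0.58, limma adjusted p = 0.00591). Both fell beyond the replicate spread in all 15 alternative fits. Fam78b, Slc36a2 and Col13a1, a transmembrane collagen, also fell in all of them, with 7, 7 and 4 lost regions and log2 fold changes of -2.15, -2.82 and -2.50. Dmp1, an osteocyte matrix protein, had 3 lost regions beside 18 kept peaks, and Sost, which encodes the Wnt inhibitor sclerostin, had 2 beside 6. They fell by 1.27 and 1.84 on the log2 scale (limma adjusted p = 0.0186 and 0.0281). These calls passed in 11 and 10 of 15 alternative fits, with limma adjusted p up to 0.0721 and 0.0884. Dkk1, another Wnt inhibitor, had 4 lost regions beside 17 kept peaks, and Phospho1, a phosphatase of matrix vesicles, had 3 beside 8. These 2 genes fell by 2.12 and 1.84, each passing in 13 of 15 alternative fits.

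Other bone genes with lost regions did not pass the test. Col1a1, with 4 lost regions, was at 1747, 1395 and 3168 RPKM in VitC+ and 524, 107 and 1423 in VitC+/-, where the ranges met (-2.32 ± 0.78, SE, limma adjusted p = 0.077). Pth1r, which lost 8 of 9 peaks, was at 71.4, 49.4 and 112 and at 35.5, 18.1 and 51.7 (-1.30 ± 0.57, limma adjusted p = 0.155). Vdr was at 17.9, 22.6 and 35.3 and at 36.2, 35.3 and 26.4 RPKM, so that 10 lost regions stood beside a log2 difference of 0.28 ± 0.18 (limma adjusted p = 0.325). Lrp5 gave -0.51 ± 0.19 (limma adjusted p = 0.0968), Slc13a5 -2.75 ± 0.86 (0.0629) and Runx2, the master regulator of osteoblasts, -0.67 ± 0.20 (0.0575). Runx2 had 2 lost regions beside 20 kept peaks within 30 kb of its TSS. Over the whole gene it held 17 lost regions, where kept peaks were not counted. Sp7, which acts downstream of RUNX2 and had 1 lost region beside 6 kept peaks, gave -1.28 ± 0.54 (0.14).

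Some genes near many lost regions rose. Mt1 was at 185, 171 and 190 RPKM in VitC+ and 529, 458 and 425 in VitC+/-, without overlap (1.24 ± 0.18, SE, limma adjusted p = 0.00526), and Mt2 at 67.0, 64.9 and 82.2 and at 275, 201 and 195 (1.51 ± 0.20, limma adjusted p = 0.00353). Anapc7, all of whose 7 VitC+ peaks were lost, was at 7.79, 11.2 and 12.3 and at 16.3, 16.1 and 16.8 (0.53 ± 0.12, limma adjusted p = 0.0254), and passed in 9 of 15 alternative fits, where limma adjusted p reached 0.0937. Spp1, which encodes osteopontin, had 5 lost regions beside 26 kept peaks and rose from 1027, 1518 and 1546 to 4300, 2404 and 4317 RPKM. Ctsk, the collagenase of osteoclasts, had 4 beside 6 and rose from 692, 1022 and 1116 to 2784, 1518 and 3543. Spp1 and Ctsk each passed in 10 of 15 alternative fits. Mt1 and Mt2 passed in all 15. The other higher genes with the most lost regions were Ttc39b (10), Fam46c, Slc38a2 and Csnk1g1 (8 each) and Scaf4 (7), with log2 fold changes of 0.52 to 1.07. Csnk1g1 passed in all 15 alternative fits, Ttc39b in 9 and the other 3 in 8 each.

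**Figure D5:**
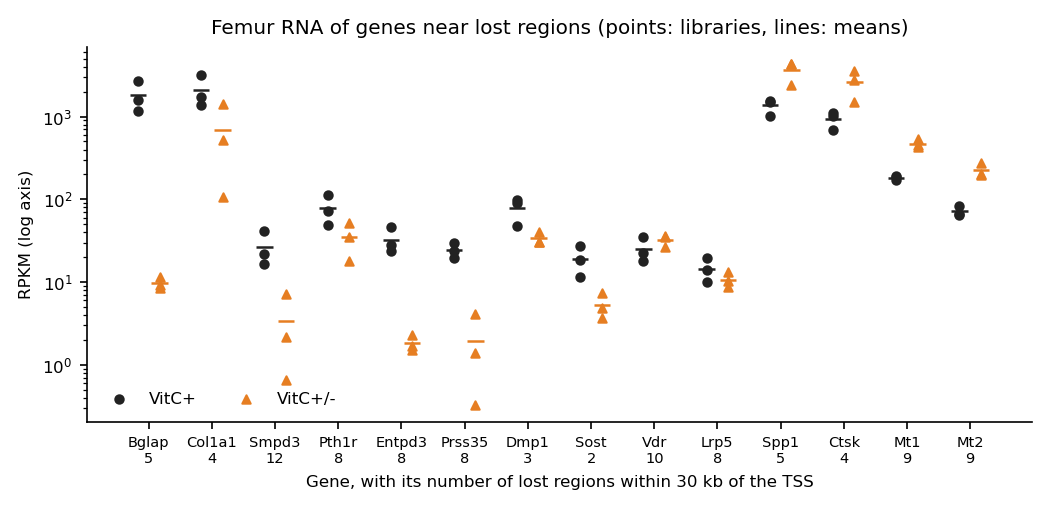
RPKM on a log axis of 14 genes near lost regions in the 3 VitC+ (black circles) and 3 VitC+/- (orange triangles) femur libraries, with the mean as a line and the number of lost regions within 30 kb under each name. Bglap falls from over 1000 to near 10 RPKM, Vdr overlaps between groups, and Mt1 and Mt2 are higher in VitC+/-.

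The lower genes with the most lost regions, beyond those above, were Pdzd2 (10 lost regions), Cpe, carboxypeptidase E, and Tmem117 (9 each), Fhod3, a formin, and Fyn, a Src family kinase (8 each). Their log2 fold changes lay between -2.36 and -0.91, and passed in 8 of 15 alternative fits for Cpe and Fyn, 9 for Pdzd2, 10 for Fhod3 and 11 of 12 for Tmem117. Counted over the whole gene, Fhod3, Tmem117 and Pdzd2 held 54, 49 and 44 lost regions. Those counts were not set against gene length or kept peaks, and long genes can hold more of either.

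Genes of other cell types were read against the 7.38% lower and 6.01% higher among all tested genes near lost regions. In 8 tested osteoclast genes with a lost region 4 were higher and none lower, among them Ctsk and Nfatc1, a transcription factor of osteoclast formation, with 4 lost regions each. Without VitC+/- replicate 1 limma called 1 of 7. Of the 3 tested osteoclast genes without a lost region 1 was higher. The median log2 difference was 0.74 without and 0.71 with a lost region. In 7 tested B lineage genes with a lost region, such as Blnk and Rag1, 6 were lower, and all 4 tested without one were lower as well. Without VitC+ replicate 2 or VitC+/- replicate 1 these counts were 2 of 7 and 1 of 4. Chondrocyte genes with a lost region were lower in 3 of 6 cases, among them Col2a1, with 4 lost regions, which fell by 3.57 on the log2 scale and passed in all 15 alternatives. The other lists gave small counts, several of them about what those shares give. By adjusted p, limma called 3 of 22 Wnt and BMP genes with a lost region lower, 2 of 5 megakaryocyte genes, 1 of 10 collagen hydroxylase genes, 1 of 8 neutrophil genes, 1 of 5 T cell genes and 1 of 9 stroma genes, and higher 2 of 5 erythroid and 1 of 9 stroma genes. Without VitC+ replicate 2 or VitC+/- replicate 1 none of the Wnt and BMP, megakaryocyte or erythroid genes was called in those directions. It called none of 4 muscle, 6 endothelial, 2 macrophage and 7 cytosine methylation genes with a lost region. Of 11 adipocyte genes none passed, and the summed RPKM of that list was 3436 in VitC+/- replicate 2 against 234 to 454 in the other 5 libraries. Summed neutrophil markers ran from 22738 to 50124 RPKM in VitC+ and from 7702 to 26040 in VitC+/-, and summed skeletal muscle markers reached 1723 in VitC+ replicate 2 against 9.53 to 517 in the rest of these 6. No marker of these lists was at 0 in all 9 libraries, and the part of cell makeup in the calls near lost regions was not tested. Among writers and erasers of cytosine marks, Dnmt3a, a methyltransferase, and Tet1 had 3 lost regions each. Tet1 did not pass the filter, at 0.271, 0.649 and 0.669 RPKM in VitC+ and 0.181, 0.241 and 0.284 in VitC+/-, and Dnmt3a gave -0.33 ± 0.17 (limma adjusted p = 0.215).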

How the data were processed

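The authors deposited MACS2 peak lists on mm10, pooled per group, with fold enrichment as a ratio and −log10 q-values. The deposited MC3T3-E1 5hmC lists also hold a pileup signal, which was not used. The authors deposited RNA-seq as RPKM per gene, aligned with STAR 2.6.0b-1 and, for peaks, BWA 0.7.15.1 per the submitters' processing notes. No read counts were used, and DESeq2 normalized counts of the Tet libraries were not analysed here.

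Overlaps needed 1 bp. Places, TSS and sequence came from RefSeq GRCm38.p6. Of 23358 RPKM entries 22593 matched a RefSeq gene, 2274 by synonym. Bins were 5 classes each of length, fold and G or C share, with at least 20 peaks. RPKM was scaled by median of ratios, entries with at least 1 RPKM in at least 3 libraries were kept, and limma 3.58.1 (trend) was fitted in R 4.3.3. The overlap, counting and limma steps were tested on simulated data. Named genes were those with the most lost regions, the nearest to the 10 strongest, list genes with at least 3, called genes with the most, and defining bone genes. Chromosome 18 was left out of the choice of printed sequences. The 8 genes mapped in detail were picked among them after their values were seen. The members and gene lists were chosen with earlier results of these data known. P-values rest on the spread between libraries of the same group, pooled over the 9 libraries with WT included and moderated by limma across entries. Read depth is unknown from RPKM.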

Additional observations from a re-analysis of the deposited data

How the results depend on the processing

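Each list is 1 pooled call, so the lost regions have no replicate and the depth that would tell a missing peak from an uncalled one is not known. At a −log10 q-value of at least 10 there were 18645 lost regions (9.53% of VitC+ peaks), and 33868 (11%) when no VitC+/- peak was allowed within 1000 bp. In the order q-value of at least 10, none within 1000 bp, at least 50% of the region overlapped, and other list at a q-value of at least 5, the share found in Ctrl femur was 64.8%, 49.5%, 49.3% and 48.2%, in Tet1/2 cKO femur 36.8%, 25.2%, 23.6% and 19.1%, in MC3T3-E1 with VitC 44.7%, 35.9%, 34.4% and 33.8%, and without VitC 18.6%, 19.7%, 15.2% and 15.1%. The first 2 settings put 67.8% and 61.3% inside genes.

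Without scaling, limma called 403 genes lower and 473 higher, 283 and 348 near lost regions, where the median log2 difference was 0.1461 and that of all entries 0.1345 against 0.0236 with scaling. Genes near lost regions called lower and higher were 397 (7.36%) and 326 (6.04%) within 10 kb. They were 428 (7.9%) and 326 (6.01%) at a q-value of at least 10. Within 1 kb they were 64 (10.5%) and 31 (5.08%), where the median was -0.0229. With the region inside the gene 412 (6.97%) were lower and 399 (6.75%) higher, and the median was 0.0704. Over all tested entries the shares were 7.52% and 5.93%. With 1 library left out, 316 to 1227 genes were lower and 165 to 1069 higher, near lost regions 221 to 886 and 128 to 782, with a median of 0.0104 to 0.0449. The lowest counts came without VitC+/- replicate 1 or VitC+ replicate 2 or 3, the highest without WT replicate 1. With a replicate block 1206 were lower and 963 higher, 864 and 710 near lost regions, but the labels do not say that the numbers pair the samples. Same-numbered VitC+ and VitC+/- libraries deviated together with r of -0.0675, 0.0573 and 0.3691, and with WT included r ran from -0.1915 to 0.4646. Libraries of different number were not compared, so these values do not settle pairing. The cause of these shifts was not tested.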
